A study of Mus musculus with 2 samples.

Results

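The proteasome genes were examined in RNA sequencing of NHOS cells, a mouse osteosarcoma line, transfected with IL10RB, which encodes the shared beta chain of the interleukin-10 receptor family, against mock-transfected NHOS cells. Both cultures were kept in medium with serum and the selection drug G418, and there was 1 library per group. The members were all protein coding genes whose symbol begins with Psm, a letter from a to g and a digit, plus Pomp, which gave 52 of the 55414 genes listed. Of the 52, 31 encode constitutive subunits of the 20S core or the 19S cap, 3 the immune catalytic subunits, 6 other caps or an inhibitor, and 8 assembly factors. Psma8 and Psmb11 are subunits known from testis and thymus, and Psmc3ip and Psme3ip1 share the name pattern without being subunits. The labels give neither the promoter or species of the construct nor the number of clones.

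The libraries held 23898112 estimated counts in the transfectant and 18766040 in mock. Il10rb was at 49.8 TPM (transcript abundance scaled for gene length and library size) in the transfectant and 18.4 TPM in mock, a CPM (scaled count, not corrected for length) ratio of 2.57 with a 95% counting interval of 2.32 to 2.85. The labelled tumour type was checked with 10 osteoblast markers, all of which had counts in both libraries. Of the 9 past a floor of 50 counts in a library, 4 were more than 2-fold higher in the transfectant and 0 lower, where 19.7% of all genes past that floor were called higher and 11.9% lower. The 4 higher markers were Ibsp (8.86-fold), Bglap (5.64-fold), Bglap2 (5.07-fold) and Spp1 (4.05-fold). Col1a2 stood at 1067 and 1058 TPM, and Runx2 at 76.4 and 49.2 TPM, in transfectant and mock. Col1a1 was at 292 TPM in the transfectant and 226 TPM in mock. Alpl and Sp7 were lower by less than 2-fold, at 781 and 71.2 TPM in the transfectant and 1128 and 78.4 TPM in mock. Every difference is between these 2 libraries, with no replicate to give a spread or a test. Intervals are exact 95% intervals that cover counting error only. Amplified reads without molecular identifiers are not independent molecules, so even that error may be understated. Ratios are of CPM, transfectant over mock. In bulk RNA, fewer cells of a type and less RNA per cell cannot be told apart.

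The proteasome is the protease complex that degrades ubiquitin-tagged proteins in the cytosol and nucleus. Its 20S core is a barrel of alpha rings around beta rings, and Psmb5, Psmb6 and Psmb7 carry the active sites. In cells exposed to interferon-gamma, newly made cores take up Psmb8, Psmb9 and Psmb10 in place of Psmb5, Psmb6 and Psmb7, which alters the peptides left for MHC class I presentation. The 19S cap recognises and unfolds ubiquitin-tagged substrates, whereas the 11S cap of Psme1 and Psme2 opens the core without ubiquitin. Psmg1 to Psmg4 and Pomp help the core to assemble, and Psmd5, Psmd9 and Psmd10 do so for the base of the 19S cap.

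Sequences around the start site are shown for a contrast that the results turn on, namely immune subunits and the 11S cap against the constitutive subunits that the immune ones replace. Windows of 300 bases, from 250 before to 50 after the start, came from RefSeq for GRCm38.p6, and 44 of the 52 genes had one. On both strands, 5 motifs were searched. They were the interferon-gamma element GAS (TTCNNNGAA), the interferon element ISRE in a simple form (GAAA, any 2 bases, GAAA), the NRF element ARE (TGACNNNGC), CCAAT, and a kappaB-like element (GGGA, any 3 bases, TCC). Capitals mark the match in each window, written 5′ to 3′ on the gene's own strand. Each of these windows held 1 match, so none overlapped.
The window of Psmb8 is chr17:34197945-34198244 on the plus strand, that of Psmb9 chr17:34187281-34187580 on the minus strand, and that of Psme1 chr14:55578244-55578543 on the plus strand. The windows of the constitutive subunits are chr14:54617946-54618245 on the minus strand for Psmb5 and chr11:70525107-70525406 on the plus strand for Psmb6.
Psmb8: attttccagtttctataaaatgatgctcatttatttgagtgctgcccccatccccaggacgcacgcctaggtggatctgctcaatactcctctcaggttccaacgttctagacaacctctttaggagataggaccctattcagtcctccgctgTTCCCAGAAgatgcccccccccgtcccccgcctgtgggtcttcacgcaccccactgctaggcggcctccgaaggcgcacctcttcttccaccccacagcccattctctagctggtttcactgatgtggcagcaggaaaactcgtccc
Psmb9: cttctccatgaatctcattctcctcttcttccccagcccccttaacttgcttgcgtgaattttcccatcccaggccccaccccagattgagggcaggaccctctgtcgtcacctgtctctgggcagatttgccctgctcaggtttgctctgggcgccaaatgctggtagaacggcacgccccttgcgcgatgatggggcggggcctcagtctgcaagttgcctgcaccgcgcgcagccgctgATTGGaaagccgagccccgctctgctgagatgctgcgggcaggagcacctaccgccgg
Psme1: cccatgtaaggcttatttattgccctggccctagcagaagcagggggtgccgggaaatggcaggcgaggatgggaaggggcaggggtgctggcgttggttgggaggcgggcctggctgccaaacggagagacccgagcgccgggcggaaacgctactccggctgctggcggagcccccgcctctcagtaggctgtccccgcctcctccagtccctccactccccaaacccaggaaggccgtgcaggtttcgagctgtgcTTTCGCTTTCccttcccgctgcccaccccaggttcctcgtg
Psmb5: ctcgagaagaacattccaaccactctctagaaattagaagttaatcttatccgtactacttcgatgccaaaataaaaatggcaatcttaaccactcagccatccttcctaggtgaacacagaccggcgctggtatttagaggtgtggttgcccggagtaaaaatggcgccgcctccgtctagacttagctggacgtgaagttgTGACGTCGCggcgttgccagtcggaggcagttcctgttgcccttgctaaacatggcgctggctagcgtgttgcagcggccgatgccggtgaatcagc
Psmb6: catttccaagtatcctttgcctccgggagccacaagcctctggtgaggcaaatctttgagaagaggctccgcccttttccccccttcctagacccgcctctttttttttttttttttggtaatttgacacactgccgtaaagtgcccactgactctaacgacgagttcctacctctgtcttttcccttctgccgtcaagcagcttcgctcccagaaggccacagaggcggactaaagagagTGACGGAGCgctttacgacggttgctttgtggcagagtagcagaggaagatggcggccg

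The Psmb8 window held a GAS match whose first base lies 97 bases before the start. The Psme1 window held an ISRE-like match beginning 9 bases after the start, on the strand opposite to the printed one. The Psmb9 window held a CCAAT match, also on the strand opposite to the printed one. It shares 275 bases with the window of Tap1, the peptide transporter gene that runs the other way. Psmb5 and Psmb6 each held an ARE match, at 47 and 9 bases before the start. The windows of Psmb10 and Psme2 held none of the 5 motifs. Over all 32851 windows of the table, GAS was in 8.30%, the ISRE-like element in 3.44%, ARE in 12.4%, CCAAT in 37.4% and the kappaB-like element in 4.59%. Among the 44 proteasome genes, each counted by its first window only, 3, 5, 6, 15 and 3 genes had a match. The background counts windows and not genes. The motifs did not divide the genes by group, since GAS also matched in Psmd2 and Psmg1, the ISRE-like element in Psmb3, Psmd4, Psmd9 and Psmg4, and ARE in Psmc6, Psmd9, Psmd12 and Psme4. Psmb7, the other subunit that is replaced, had no window in the table. A match describes letters and is not evidence of a site in use.

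The immune catalytic subunits were the part of the proteasome that differed most between the libraries. Psmb8, whose product takes the chymotrypsin-like site, was at 699.6 TPM in the transfectant and 51.3 TPM in mock. That was 494 CPM against 36.3 CPM, a ratio of 13.6 (12.6 to 14.8). Psmb9, for the caspase-like site, was at 82.0 TPM in the transfectant and 9.26 TPM in mock, a ratio of 8.55 (7.27 to 10.1) from 1803 and 160 counts. Both genes lie within the MHC on chromosome 17, in the order Psmb9, Tap1, Psmb8, Tap2. In the deposited coordinates, whose build the sources do not state, Psmb9 spans 34400961 to 34406738 and Psmb8 spans 34416695 to 34420428. The deposited coordinates are not those of GRCm38, so they cannot be compared with the positions of the windows above. Psmb9 overlaps Tap1 by 212 bases on the opposite strand, and strand of counting was not stated, so reads from the overlap cannot be assigned. Tap1 itself stood at 32.6 TPM in the transfectant and 9.33 TPM in mock, a ratio of 3.57. Psmb10, for the trypsin-like site, lies apart on chromosome 8 and was at 227 TPM in the transfectant and 84.0 TPM in mock. Its ratio was 3.50 by CPM (3.21 to 3.81) and 2.70 by the deposited TPM.

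Each immune subunit was set against the constitutive subunit whose place it takes, as a ratio in which library size cancels. By counts, Psmb8 over Psmb5 was 11.9 times greater in the transfectant than in mock (10.9 to 13.0). Psmb9 over Psmb6 was 6.22 times greater (5.28 to 7.38) and Psmb10 over Psmb7 2.92 times (2.65 to 3.22). By the deposited TPM, on which the shares below rest, these were 12.5, 6.59 and 2.24 times, the last outside its counting interval. Psmb8 made up 57.8% of the TPM of the Psmb8 and Psmb5 pair in the transfectant (57.0 to 58.5) and 9.84% in mock (9.13 to 10.6). Psmb10 made up 51.5% of its pair in the transfectant (50.3 to 52.7) and 32.1% in mock (30.3 to 34.0). Psmb9 remained the minor transcript of its pair, at 5.42% in the transfectant (5.17 to 5.68) and 0.862% in mock (0.734 to 1.01). The order of these shares was thus Psmb8, Psmb10, Psmb9 in the transfectant and Psmb10, Psmb8, Psmb9 in mock. Neighbouring intervals did not overlap, but they cover counting error within a library and no spread between cultures. Summed over all pairs, the immune transcripts came to 1009 TPM in the transfectant and 144.6 TPM in mock, which is 31.9% and 7.79% of the catalytic total.

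**Figure D1:**
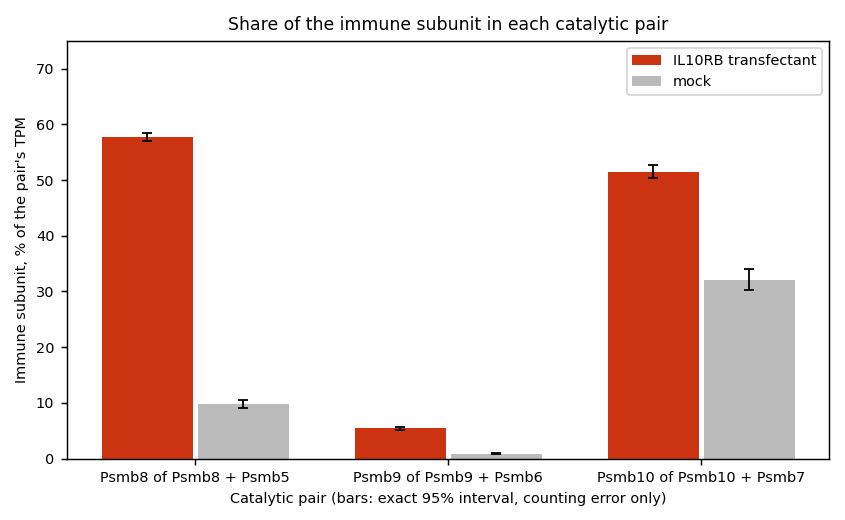
Share of the immune subunit in the summed TPM of each catalytic pair, in percent, for the IL10RB transfectant (red) and mock (grey), with exact 95% intervals that cover counting error only. Psmb8 passes its partner in the transfectant (57.8%, against 9.84% in mock), whereas Psmb9 stays at 5.42% in the transfectant, against 0.862% in mock.

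The constitutive catalytic subunits were not lower where their immune counterparts were higher. Psmb5 was at 511 TPM in the transfectant and 470.1 TPM in mock, a ratio of 1.14 (1.099 to 1.19). Psmb6 was the most abundant transcript of the whole set in both libraries, at 1431 TPM in the transfectant and 1065 TPM in mock, with a ratio of 1.37 (1.34 to 1.41). Psmb7, the least abundant of the constitutive beta genes, was at 214 TPM in the transfectant and 177 TPM in mock, with a ratio of 1.20 (1.14 to 1.26). The 6 catalytic transcripts together therefore summed to a 1.70-fold greater TPM in the transfectant, of which the constitutive 3 gave a ratio of 1.26.

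Across all members, 50 had at least 50 counts in a library. Past 2-fold lay 6 of those 50 on the higher side in the transfectant and 0 on the lower side. The 6 were Psmb8, Psmb9, Psmb10, Psme1, Psme2 and Psme2b. Their share of 12% lies below the 19.7% of all 11952 genes past that floor that were called higher, and 11.9% of those genes were called lower. Among the 2447 genes that averaged 100 CPM or more, a level that all 31 constitutive subunits reached, 9.85% were called higher and 13.1% lower. Only 3 of the 6 higher members reached that level, so the 12% is to be set beside the 19.7%. The number of higher genes is therefore no feature of the set, and which genes they were is described here. The genes nearest the threshold were Pomp and Psmd10 on the higher side, at ratios of 1.93 and 1.92, and Psmg2 on the lower side, at 1.97-fold lower.

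**Figure D2:**
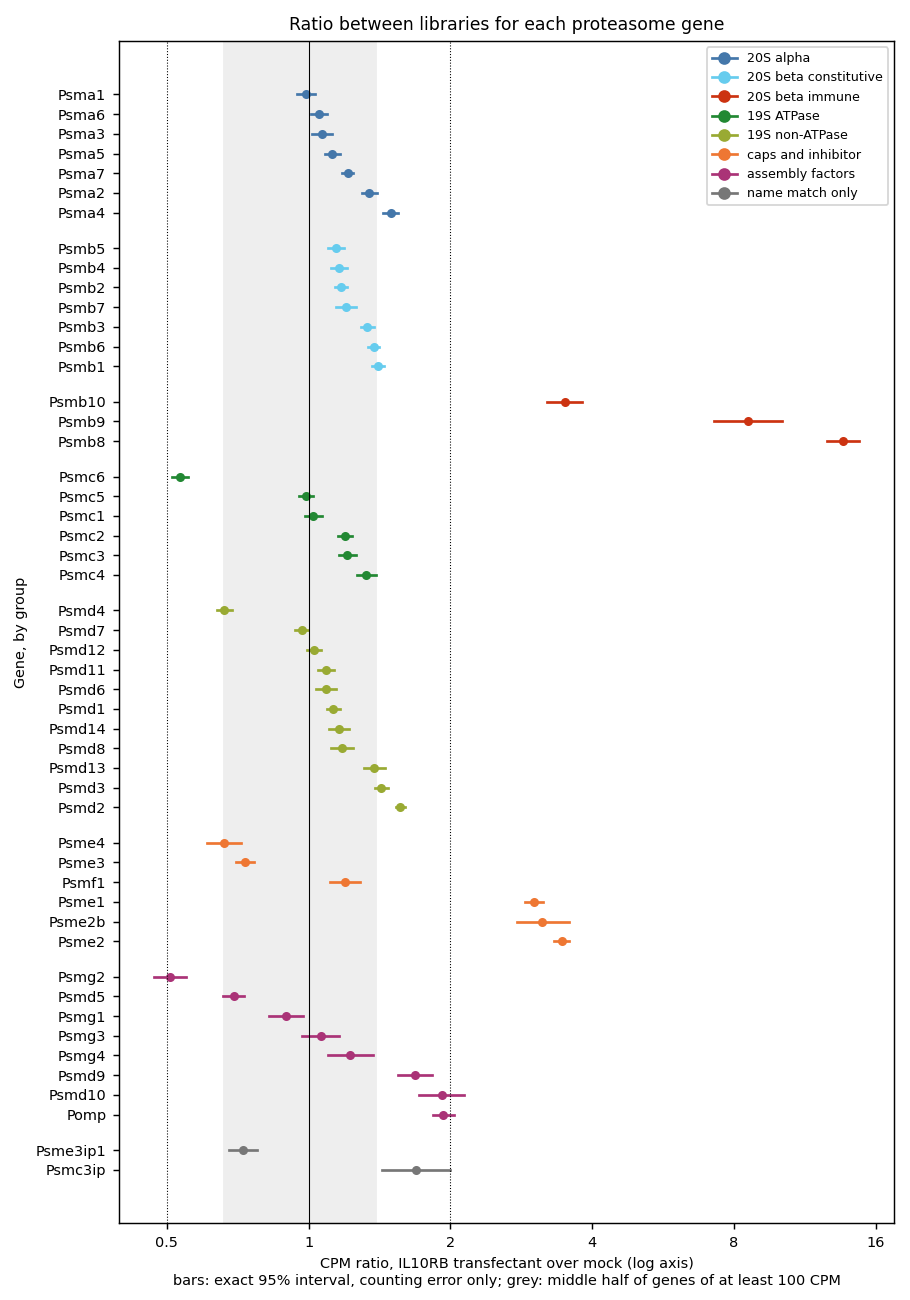
CPM ratio of IL10RB transfectant over mock (log axis) for the 50 proteasome genes past the floor, by group, with exact 95% counting intervals; dotted lines mark 2-fold and grey the middle range, from the lower to the upper quartile, of genes averaging 100 CPM or more. Only the 3 immune beta genes, Psme1, Psme2 and Psme2b lie past 2-fold, whereas the 31 constitutive subunits lie between 1.88-fold lower (Psmc6) and 1.56-fold higher (Psmd2).

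**Figure D3:**
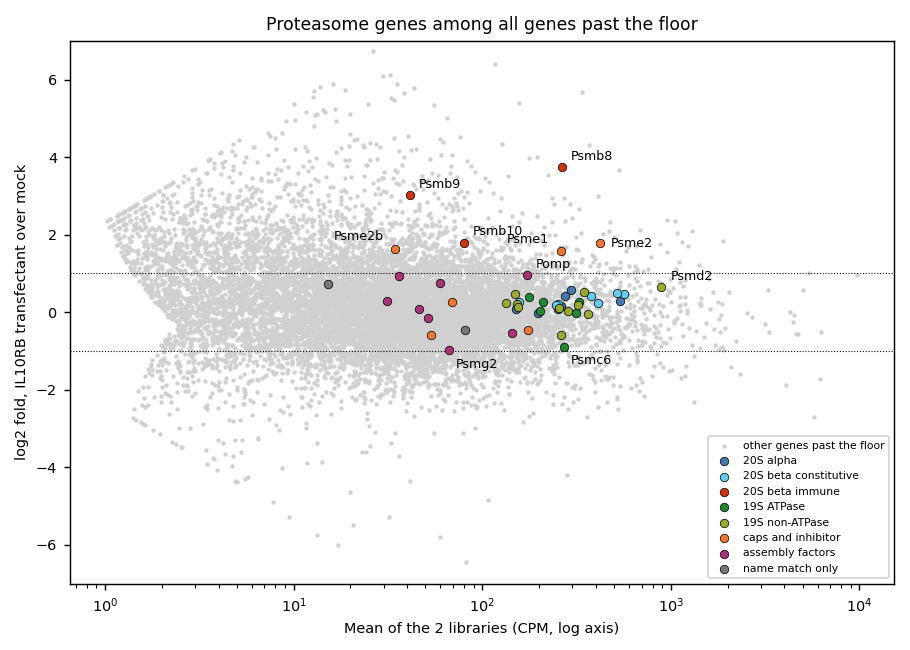
The log2 fold of IL10RB transfectant over mock against the mean of both libraries in CPM (log axis) for all 11952 genes past the floor (grey), with proteasome genes coloured by group and dotted lines at 2-fold. Psmb8 and Psmb9 stand above the band of the other members, which lie mostly between -1 and 1.

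The 11S cap was higher through both of its subunits. Psme1, the alpha subunit, was at 544 TPM in the transfectant and 179 TPM in mock, a ratio of 3.01 (2.88 to 3.15). Psme2, the beta subunit, was at 1296 TPM in the transfectant and 381 TPM in mock, a ratio of 3.44 (3.32 to 3.57). The ratio of Psme2 to Psme1 was close in both libraries, at 2.38 in the transfectant and 2.12 in mock. Both genes lie 5.91 kb apart on chromosome 14, from 55815580 to 55818986 and from 55824898 to 55828570 in the deposited coordinates. Psme2b, a close copy of Psme2 on chromosome 11, was at 104 TPM in the transfectant and 33.3 TPM in mock. Its counts were 8.02% and 8.80% of those of Psme2, and the split of reads between copies is uncertain. With the copy's counts added, the ratio of Psme2 was 3.42.

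The other caps went the opposite way, each by less than 2-fold. Psme3, which forms a nuclear 11S cap of its own, was at 76.0 TPM in the transfectant and 96.1 TPM in mock. It was 1.37-fold lower by CPM (1.30 to 1.43), a ratio of 0.732, with a ratio of 0.791 by TPM. Psme4, the large nuclear activator PA200, was at 10.1 TPM in the transfectant and 13.3 TPM in mock. It was 1.52-fold lower by CPM (1.39 to 1.65), a ratio of 0.660, with a ratio of 0.758 by TPM. Psme1 thus exceeded Psme3 by 7.16 times in TPM in the transfectant and 1.87 times in mock. Psmf1, the inhibitor PI31, was at 56.6 TPM in the transfectant and 49.9 TPM in mock, with a ratio of 1.19 (1.11 to 1.28).

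The 31 constitutive subunits of core and 19S cap lay close together. Of these, 28 had ratios within 1.5-fold in either direction (90.3%), against 44.2% of all genes past the floor and 53.3% of the genes averaging 100 CPM or more. Their median log2 fold was 0.21, beside 0.07 for all genes and -0.09 for the abundant genes, and 26 of the 31 were above 0. That count rests on the scaling, since 21 were above 0 with upper quartile scaling. Their median exceeded that of all genes by 0.14 under both scalings. A scaling shifts all genes nearly alike, so this gap could hardly change and is no check. Their summed TPM was 11885 in the transfectant and 10163 in mock. The order of their levels was also similar, with a Spearman correlation of 0.904 in TPM across the 31 genes, which share both libraries and are not independent replicates.

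**Figure D4:**
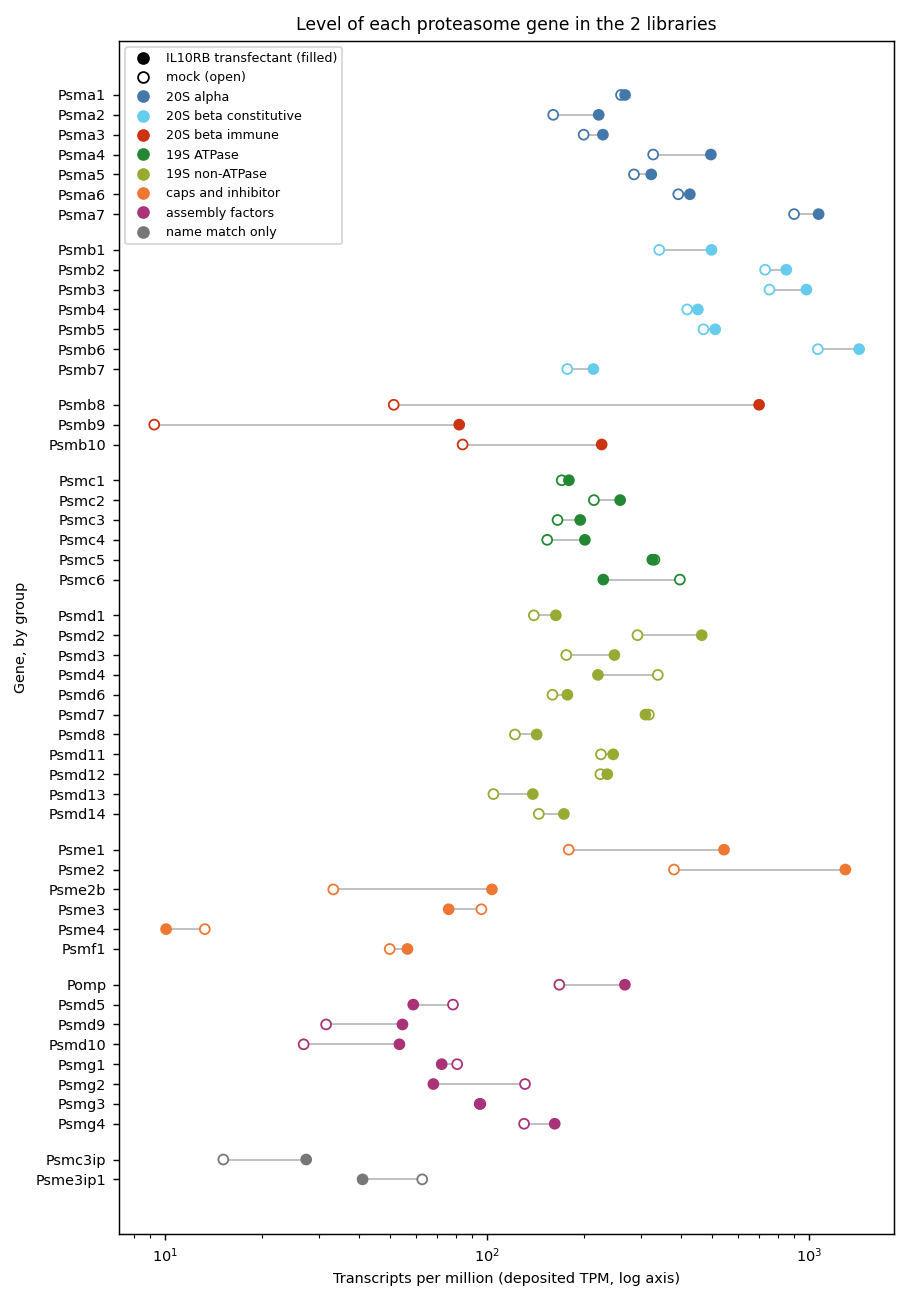
Deposited TPM (log axis) of the 50 proteasome genes past the floor in the IL10RB transfectant (filled) and mock (open), by group, with grey lines joining the libraries. Most constitutive subunits lie near their counterpart, whereas Psmb8 spans 699.6 TPM in the transfectant and 51.3 TPM in mock.

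Within the core, the 7 alpha subunits had ratios of 0.988 (Psma1) to 1.49 (Psma4), with a median log2 fold of 0.17. Psma7 was the most abundant of them, at 1071 TPM in the transfectant and 898 TPM in mock. Psma4 was at 496 TPM in the transfectant and 328 TPM in mock. The 7 constitutive beta subunits were all above a ratio of 1, from 1.14 (Psmb5) to 1.40 (Psmb1), with a median log2 fold of 0.26. Psmb1, Psmb2, Psmb3 and Psmb4, which carry no active site, were at 498, 849.8, 981 and 452 TPM in the transfectant and 343, 730.3, 753 and 418 TPM in mock.

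The 19S cap held the exceptions among the constitutive subunits. Psmc6, a subunit of its hexameric ATPase ring, was at 229.6 TPM in the transfectant and 397 TPM in mock. It was 1.88-fold lower by CPM (1.81 to 1.95), a ratio of 0.532, with a ratio of 0.578 by TPM. The other 5 ATPases ranged in ratio from 0.988 (Psmc5) to 1.32 (Psmc4), so Psmc6 stood first in TPM among the ATPases in mock and behind Psmc5 and Psmc2 in the transfectant. Psmd4, a ubiquitin receptor, was at 221 TPM in the transfectant and 339 TPM in mock, 1.51-fold lower (1.45 to 1.57). Psmd2, a large scaffold subunit of the base, was at 464 TPM in the transfectant and 293 TPM in mock, and had the highest ratio of the 11 non-ATPase subunits, 1.56 (1.53 to 1.60). Psmd3, a lid subunit, followed at 1.43. Psmd14, the deubiquitinase of the lid, was at 173 TPM in the transfectant and 145 TPM in mock, with a ratio of 1.16 (1.104 to 1.22), and Psmd7, which pairs with it, was at 310.4 TPM in the transfectant and 318 TPM in mock. The remaining non-ATPase subunits (Psmd1, Psmd6, Psmd8, Psmd11, Psmd12 and Psmd13) had ratios of 1.03 to 1.38. The median log2 fold was 0.14 for the ATPases and 0.17 for the non-ATPase subunits.

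Assembly factors were spread more widely, with 5 above and 3 below a log2 fold of 0 and 0 past 2-fold. Pomp, which matures the beta rings, was at 268 TPM in the transfectant and 168 TPM in mock, with a ratio of 1.93 by CPM (1.84 to 2.03) and 1.60 by TPM. Psmd10 was at 53.5 TPM in the transfectant and 27.0 TPM in mock, and Psmd9 at 54.6 TPM in the transfectant and 31.6 TPM in mock, with ratios of 1.92 (1.72 to 2.14) and 1.68 (1.55 to 1.83). Psmd5, the other chaperone of the 19S base, went the other way, at 59.0 TPM in the transfectant and 78.4 TPM in mock. It was 1.44-fold lower by CPM (1.37 to 1.52), a ratio of 0.693, with a ratio of 0.753 by TPM. The alpha ring chaperones act as dimers of Psmg1 with Psmg2 and of Psmg3 with Psmg4. Psmg2 was at 68.1 TPM in the transfectant and 131 TPM in mock, 1.97-fold lower (1.82 to 2.13), whereas its partner Psmg1 was at 72.3 TPM in the transfectant and 80.8 TPM in mock, 1.12-fold lower (1.03 to 1.22). Psmg3 was at 95.3 TPM in the transfectant and 94.9 TPM in mock, and Psmg4 at 162 TPM in the transfectant and 130.4 TPM in mock. With upper quartile scaling, Psmg2 and Psmc6 were called at least 2-fold lower, at log2 folds of -1.09 and -1.03.

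The tissue-specific subunits were at or near 0. Psma8 had 0 counts in both libraries, which allows up to 0.123 CPM in the transfectant and 0.163 CPM in mock at a limit of 3 counts. Psmb11, which lies 3.41 kb from Psmb5, had 2 counts in the transfectant and 0 in mock. The 3 testis and thymus markers checked were all under the floor. Of the name matches, Psmc3ip, a meiotic recombination factor, was at 27.4 TPM in the transfectant and 15.2 TPM in mock, with a ratio of 1.69 (1.43 to 1.996). Psme3ip1, which binds Psme3, was at 41.1 TPM in the transfectant and 62.9 TPM in mock. It was 1.38-fold lower by CPM (1.29 to 1.48), a ratio of 0.725, with a ratio of 0.653 by TPM.

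Genes that act beside the proteasome were taken from 4 lists, drawn up with earlier results of these data known. The proteasome-bound and shuttle factors, 15 of them past the floor, had 0 genes past 2-fold on the higher side and 2 on the lower, and a median log2 fold of -0.24. With 11.9% of all genes past the floor called lower, 2 of 15 is near the background and no feature of the list. Ubqln4, a ubiquilin that carries clients to the proteasome, was at 8.23 TPM in the transfectant and 36.01 TPM in mock, 4.31-fold lower. Uchl5, a deubiquitinase of the 19S cap, was at 97.8 TPM in the transfectant and 205 TPM in mock, 2.33-fold lower. Of 12 genes for the transcription factors, processing enzymes and partners behind the proteasome recovery response, 1 was higher and 5 lower, with a median of -0.62, beside 19.7% higher, 11.9% lower and a median of 0.07 over all genes past the floor. The 5 were Mafk (3.89-fold), Maff (3.64-fold), the NFE2L1 protease gene Ddi2 (2.45-fold), Mafg (2.45-fold) and Zfp143 (2.24-fold), and Ufd1, a cofactor of the unfoldase VCP, was 2.04-fold higher. Mafk, Maff and Mafg encode the small MAF proteins that pair with NRF factors on ARE sites.

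Of 8 ubiquitin and E1 enzyme genes past the floor, 2 were higher and 0 lower, with a median log2 fold of -0.23 and a mean, of the other sign, of 0.35. The 2 of 8 are near the 19.7% of all genes called higher. Uba7, the activating enzyme for the ubiquitin-like protein ISG15, was at 9.59 TPM in the transfectant and 0.551 TPM in mock, a ratio of 16.6 (11.1 to 25.8). Its counts were 546 in the transfectant and 25 in mock, so Uba7 passed the floor in the transfectant alone. Isg15 was at 372 TPM in the transfectant and 185 TPM in mock, a ratio of 2.08 (1.95 to 2.22). Of 15 interferon-gamma pathway and class I processing genes past the floor, 9 were higher and 0 lower, with a median of 1.19, against 19.7% and 11.9% of all genes and their median of 0.07. This list was also chosen with earlier results of these data known, so the contrast describes it and is no test. Irf1, a transcription factor known to act on Psmb9, was at 87.9 TPM in the transfectant and 39.2 TPM in mock, a ratio of 2.29 (2.15 to 2.45). Nlrc5, the transactivator of class I genes, was at 4.17 TPM in the transfectant and 1.37 TPM in mock, a ratio of 2.93 (2.31 to 3.75). Tapbp (5.15-fold), Tap2 (2.59-fold), Ifngr2 (2.47-fold) and Socs1 (2.35-fold) were also higher. The list was not uniformly higher, with 11 of the 15 genes above a log2 fold of 0 and 4 below.

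Leukocytes carry immune subunits at rest, and their markers were therefore read beside these genes. Of 15 leukocyte markers, 4 passed the floor, each in a single library, so the floor itself favoured a call of higher or lower. Past 2-fold, 3 of the 4 lay on the higher side and 1 on the lower (Csf1r, 24 counts in the transfectant and 57 in mock). Over all genes past the floor, 19.7% were called higher and 11.9% lower. Among the 15, 6 were at 0 counts in the transfectant and 4 in mock, and their TPM summed to 45.6 in the transfectant and 7.26 in mock. Most of the transfectant sum came from Lyz2 (27.3 TPM, against 0.285 in mock) and Cd68 (7.14 TPM, against 1.49 in mock). Ptprc, carried by nearly all leukocytes, had 0 counts in the transfectant and 27 in mock, Cd3e had 0 and 13, and Tyrobp, Itgam and Itgax had 0 in both. Of 7 fibroblast markers, 6 passed the floor and all 6 were at least 2-fold higher, as were 19.7% of all genes past the floor, with summed TPM of 193 in the transfectant and 43.2 in mock and Thy1 at 0 counts and 1 count. Their part in the immune subunit and 11S cap differences was not tested.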

How the data were processed

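RNA of 1 IL10RB-transfected and 1 mock-transfected NHOS culture was made into SMART-Seq v4 libraries, per the labels' protocols. The submitters' processing notes name DRAGEN. Build, annotation and aligner settings are likewise not given in the sources used here. Per the file headers, each gene of the deposited table has estimated counts and TPM in both libraries. The deposited estimated counts are unscaled, and 20 of the 52 members had a count that was not whole. Strand of counting is not stated. Gene length, an other deposited value in bases, was not used in a test.

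Estimated counts were rounded and scaled by TMM (factors of 1.02 in the transfectant and 0.983 in mock) with edgeR 4.0.16 in R 4.3.3. DESeq2 1.42.0 gave alternative size factors. Neither tool was used for a test. Log2 folds were taken after adding 0.5 to CPM. A gene counted with at least 50 counts in a library and was called at 2-fold. Ratios have no pseudocount and carry exact conditional 95% intervals. Exchange ratios are conditional odds ratios. Intervals of pair shares are Clopper-Pearson intervals of the counts, converted to TPM. Calculations used pandas 2.3.3, numpy 2.4.6 and scipy 1.17.1 under Python 3.11.15, with matplotlib 3.10.9 for plots. The procedure was tested on simulated counts with planted folds and counting error only. That simulation held no spread between cultures, so it cannot show how often calls from single libraries would repeat.

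The members, gene groups and lists were chosen with earlier results of these data known. Every member could be named, and from each list those past 2-fold, up to 8. A gene that this rule names is not reported here. Marker genes and Tap1 were also named, and the markers named were chosen after their values were seen. Of 17 listed bound and shuttle factors, 16 were found by symbol. Alternatives were other scalings, pseudocounts, floors and folds, protein coding genes only and the deposited TPM. Those on abundant genes and on copies were added after seeing the data.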

Additional observations from a re-analysis of the deposited data

How the results depend on the processing

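Of the 6 higher members, 6 were called under every scaling, pseudocount and floor tried, in the deposited TPM and among protein coding genes. With upper quartile scaling 2 members were at least 2-fold lower, and the median log2 folds were 0.046 (alpha), 0.14 (constitutive beta), 0.023 (19S ATPase), 0.054 (19S non-ATPase) and 0.80 (caps). That scaling put the median of all genes at -0.04, against 0.07. Total count scaling gave 0.31 for constitutive beta, and a pseudocount of 2 gave 2.84 for immune beta. In the deposited TPM the Psmb10 over Psmb7 exchange was 1.16 on the log2 scale, against 1.55 from counts, and the cause was not tested. A fold of 1.5 called 11 members higher and 4 lower (3666 and 2853 of all genes), and a fold of 4 called 2 higher (772 and 219 of all genes). Among genes averaging 100 CPM or more, 3 members and 241 genes were higher and 320 genes lower, since fewer genes enter, and without a floor 2316 genes were lower. For single members, 244 values lay within the counting interval and 61 outside it, and 41 of those outside came under upper quartile scaling. No paired analysis was possible because there was a single library on each side. Depth limits Psma8 and Psmb11, at 0.0411 CPM per count in the transfectant and 0.0542 in mock.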

Other observations

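Counts and deposited TPM gave nearly the same ratio for most members: dividing the CPM ratio by the TPM ratio gave a value within 10% of 1 for 46 of 50. Psmb10, at 1.29, and Pomp, at 1.21, had the highest values, so more reads per TPM were recorded for them in the transfectant. Psme4, at 0.870, had the lowest. Over the 10612 genes that reached 50 counts in each library, the median was 0.995 and the central 95% ran from 0.729 to 1.31. Reads of named pseudogenes were few beside those of their parents. Psma5-ps, at 172 counts in the transfectant and 97 in mock, was the largest, at 2.55% and 2.12% of the counts of Psma5.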
